A study of Mus musculus with 30 samples.

Results

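Haematopoietic stem cells (HSCs) of mouse bone marrow were compared after 1 day in culture and without culture, over all genes. The comparison used 8 of the 30 libraries of the series, 4 of cultured and 4 of uncultured HSCs, chosen by their labels. Of 46113 genes in the count tables, 12386 had enough exon reads to be tested. Each library was made from 100 cells sorted as CD150+ CD48- EPCR+ Lineage-. In both groups the marrow came from C57BL/6 mice, 8 to 10 weeks old. No mouse of either group was given 5-fluorouracil, the agent used in other parts of the series, and the labels name no transgene or mutation. They give no culture medium, cytokine or oxygen level, nor whether cells were sorted again after culture, and they do not say whether replicates came from separate mice or separate cultures. P-values therefore measure the spread between these libraries, which may be technical. The other groups of the series, not used here except where named, were untreated controls and cells taken after 5-fluorouracil.

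HSCs renew all blood lineages and are mostly out of the cell cycle in adult marrow. Quiescent HSCs hold small amounts of the RNA and protein of growth, and keep CDK inhibitors and FOXO-dependent genes on. Outside the marrow niche they are known to leave this state within days when cytokines such as SCF and thrombopoietin are given, which calls for lipids, nucleotides, ribosomes and mitochondrial capacity before the first division. Exon reads come mostly from spliced mRNA, and intron reads from unspliced RNA and from long introns.

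The 8 libraries held 5.36 to 9.11 M exon reads. Values below are exon reads in CPM (counts scaled to library size) after TMM scaling, given as mean ± SD over 4 libraries, and changes are log2 ratios of cultured over uncultured HSCs from edgeR's quasi-likelihood test with Benjamini-Hochberg adjustment over all genes tested (threshold 0.05). All are shares of a library's reads, so that fewer cells of a type and less RNA per cell cannot be told apart, and neither can a change in total RNA per cell be seen. Slamf1, which encodes CD150, was present at 22.3, 25.1, 26.1 and 23.7 CPM in uncultured and 12.3, 16.5, 11.4 and 12.3 CPM in cultured libraries. Procr, which encodes EPCR, had 45.3, 58.3, 67.9 and 59.5 CPM in uncultured and 18.2, 20.3, 16.6 and 19.6 CPM in cultured libraries. Both genes of the sort gate fell, with log2 changes of -0.89 (adjusted p = 0.000225) and -1.63 (adjusted p = 3.26e-07), and their groups did not overlap. Cd48, the gene of the marker used for exclusion, was at 3.36, 1.33, 3.41 and 1.89 CPM in uncultured and 1.16, 2.06, 0.790 and 2.23 CPM in cultured libraries (adjusted p = 0.21). Cd3e, a T-cell gene, had no read in any of the 8 libraries.

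Libraries of uncultured HSCs were less alike than those of cultured HSCs. Their pairwise correlation of log2 CPM was 0.96 to 0.97, against 0.99 for the cultured ones, and chi-square per degree of freedom between counts was 10.1 to 17.4 against 2.45 to 6.01. Cultured replicates 1 and 2 were closer to each other (3.09), as were replicates 3 and 4 (2.45), than the other cultured pairs (4.69 to 6.01). What set them apart was not tested. Uncultured replicate 2 stood apart in immediate early genes, whose summed level was 4687, 14068, 3337 and 3274 CPM in uncultured replicates 1 to 4. In cultured replicates 1 to 4 it was 823, 831, 1256 and 1146 CPM. Uncultured replicates 1 and 3 held globin transcripts, with summed erythroid markers of 3853 and 5907 CPM against 756 and 773 CPM in replicates 2 and 4 and 1223 to 1362 CPM after culture. Uncultured replicates 1 and 4 held more of the myeloid and granule markers, at 3600 and 2648 CPM against 1197 and 1176 CPM in replicates 2 and 3 and 1018 to 1073 CPM after culture. Of the genes described, those whose log2 change moved by more than 1.5-fold without uncultured replicate 2, or without replicates 1 and 3 together, are given with and without them.

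**Figure D1:**
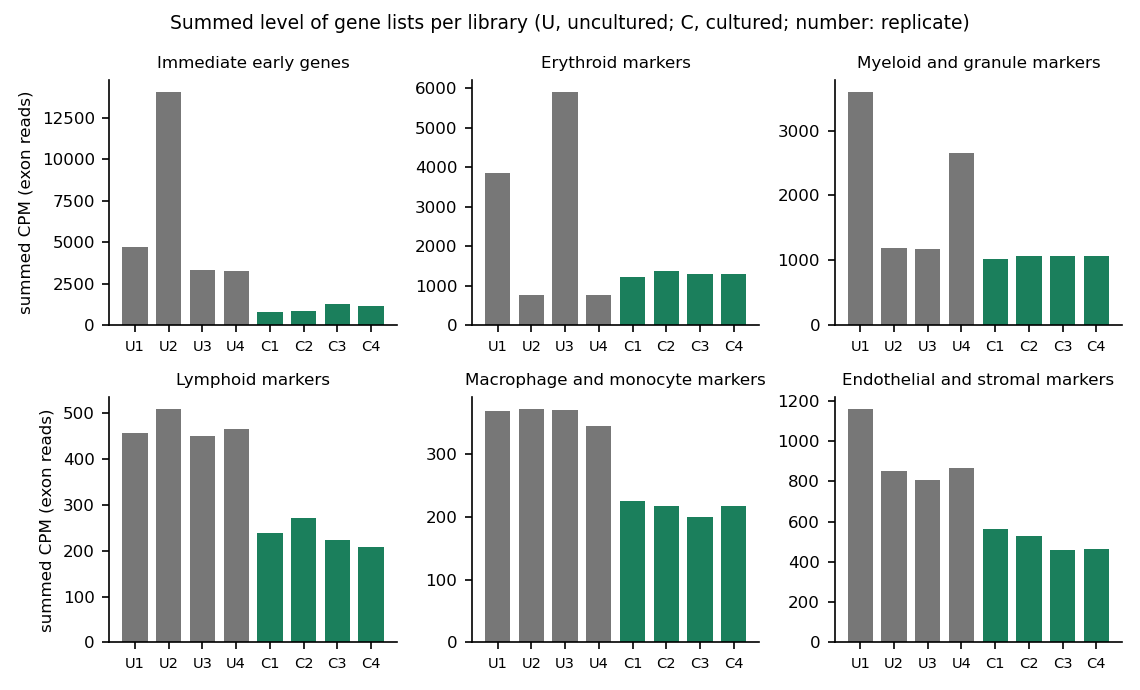
Summed CPM of exon reads of 6 gene lists in each of the 4 uncultured (U1 to U4) and 4 cultured (C1 to C4) libraries; each bar is 1 library. Uncultured replicate 2 reached 14068 CPM for immediate early genes, and uncultured replicates 1 and 3 reached 3853 and 5907 CPM for erythroid markers. The cultured bars of immediate early genes ran from 823 to 1256 CPM, with replicates 3 and 4 above replicates 1 and 2.

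One day of culture was followed by changes in most of the transcriptome. On exon reads 4187 genes rose, 33.8% of the 12386 genes tested, and 4182 fell, also 33.8%. In 7688 genes (62.1%) the CPM of the groups did not overlap. Changes of at least 4-fold were found in 300 genes that rose and 601 that fell, and of at least 16-fold in 18 and 57. Intron reads could be tested for 14291 genes, of which 3256 (22.8%) rose and 3513 (24.6%) fell. The median log2 change over all genes was -0.01 on exon reads and -0.03 on intron reads. Scaling by library totals alone moves the exon median to -0.14 and the share of rises among exon calls from 50% to 41.9%, and among intron calls from 48.1% to 39.1%, so changes are relative to that choice. Library composition differed too. Intron reads were 70.4 ± 0.501% of reads on genes in uncultured and 62.5 ± 0.167% in cultured libraries, and mRNA of the mitochondrial genome was 0.230 ± 0.0332% and 0.358 ± 0.0130% of reads (two-sided exact permutation test, p = 0.0286 for each, the smallest that 4 against 4 allows, and 0.0571 adjusted over 6 library values). The intron share includes reads on entries with no annotated exon, which were 11.7 ± 1.75% and 14.1 ± 0.495% of reads. Over entries with an exon it was 65.4 to 67.6% in uncultured and 56.2 to 56.5% in cultured libraries.

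**Figure D2:**
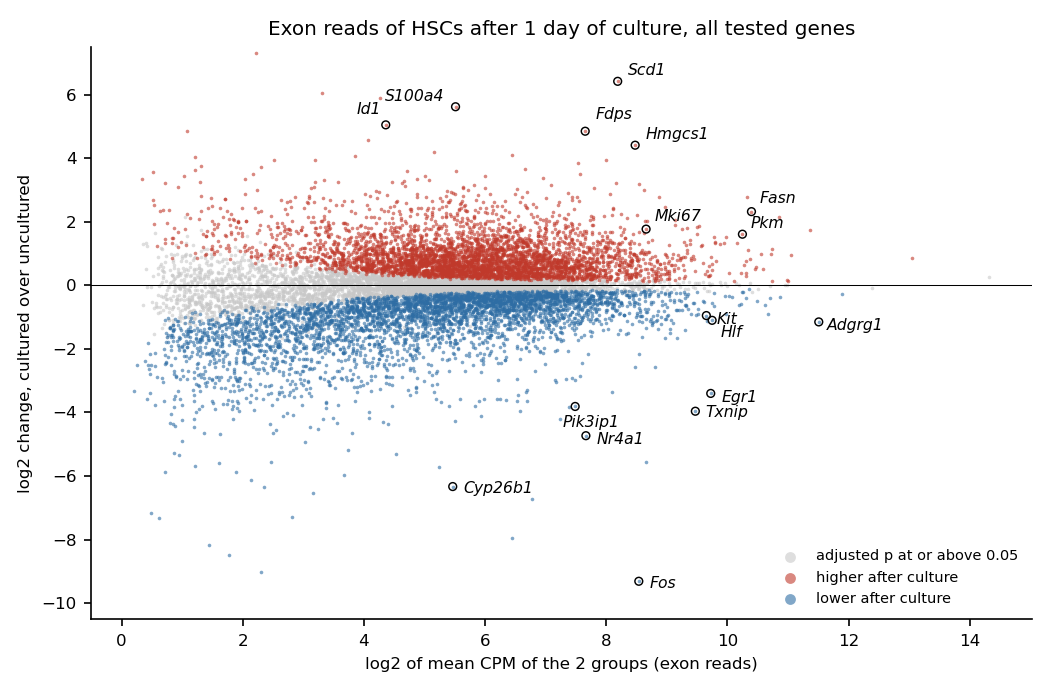
Log2 change of exon reads, cultured over uncultured HSCs, against the log2 of the mean CPM of both groups for the tested genes; each dot is 1 gene, red higher, blue lower, grey past no threshold. Scd1, Fdps and Hmgcs1 lie at log2 changes of 6.42, 4.85 and 4.41, and Fos, Txnip and Cyp26b1 at -9.31, -3.96 and -6.33.

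Genes of sterol and unsaturated fatty acid synthesis rose, and the sterol list had the highest median of the lists with at least 3 tested members. Of 29 genes of cholesterol synthesis and uptake, 26 rose and 2 fell, with a median log2 change of 2.89 against -0.01 over all genes. Their intron reads moved with them, as 25 of 29 rose and 0 fell, with a median of 2.67. Fdps (NCBI gene 110196, chr3:89093588-89101967), the synthase of farnesyl diphosphate, had 11, 9.19, 16.6 and 17.0 CPM in uncultured and 388, 398, 374 and 395 CPM in cultured libraries. The 4 cultured values lie far above the 4 uncultured ones, and the log2 change was 4.85 (SE 0.15, adjusted p = 4.65e-10). Hmgcs1 (NCBI gene 208715, chr13:119690351-119708260), which makes HMG-CoA, had 30.6, 22.5, 41.9 and 32.7 CPM in uncultured and 711, 663, 669 and 682 CPM in cultured libraries, a log2 change of 4.41 (adjusted p = 4.65e-10). The enzymes that build the sterol rings rose as well: Sqle, the squalene epoxidase, by 3.49, Lss, the lanosterol synthase, by 3.94, Cyp51, the lanosterol demethylase, by 3.84, and Msmo1, a methylsterol oxidase, by 4.11 on the log2 scale. Mvd, Idi1 and Hsd17b7, of earlier and later steps, rose by 3.59, 3.44 and 3.60.

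Genes of sterol efflux fell beside the rise of synthesis. The members of the cholesterol list that fell were Mylip, a ubiquitin ligase (49.2 to 23.2 CPM), and Ggps1, which makes geranylgeranyl diphosphate, with 83.7 to 58.8 CPM. Abca1, a cholesterol exporter and a target of the oxysterol receptor LXR, had 147, 104, 115 and 103 CPM in uncultured and 11.3, 14.4, 9.32 and 4.46 CPM in cultured libraries, a log2 change of -3.56 (adjusted p = 6.32e-08). Abcg1, the exporter to HDL, and Apoe, a lipoprotein, changed by log2 values of -1.37 and -2.96. Of 9 tested LXR and efflux genes 5 fell and 1 rose, the latter being Npc2, a lysosomal sterol carrier (49.5 to 64.3 CPM), which missed the threshold on exon-exon junction reads alone (log2 change 0.26, adjusted p = 0.191). Srebf2, the transcription factor of the sterol pathway, rose from 492 ± 73.9 to 858 ± 15.8 CPM, and Insig1, which holds it in the endoplasmic reticulum when sterols are plentiful and is itself one of its targets, rose from 63.3 ± 25.7 to 472 ± 32.4 CPM. Insig1 and Srebf2 changed by 2.89 and 0.80 on the log2 scale.

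The sterol regulatory element bound by SREBP factors was searched as TCACNCCAC on both strands of the window from 250 bases before to 50 after each RefSeq gene start (GRCm38.p6). Of the 29 cholesterol genes 21 had a window and some had more than 1, and the element was in 1 of their 27 windows (3.70%) and in 1.24% of all 32851 windows. The gene with it is Hmgcs1, and the stretch around the match (chr13:119690194-119690241, plus strand) is shown because Hmgcs1 is among the strongest rises, with the match in capitals. The CCAAT box, bound by the factor NF-Y, was in 19 of the 27 (70.4%) and in 37.4% of all windows. Here and below, shares are of windows, in a list and over all genes. A match is a description of letters, not of binding.
Hmgcs1: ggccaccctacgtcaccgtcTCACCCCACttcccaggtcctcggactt

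Fatty acid desaturation and synthesis followed. Of 25 members 16 rose and 2 fell (median 1.29). Scd1 (NCBI gene 20249, chr19:44394450-44407709), the stearoyl-CoA desaturase that makes oleic acid, had 4.77, 4.00, 9.34 and 8.64 CPM in uncultured and 613, 566, 554 and 573 CPM in cultured libraries. Its log2 change of 6.42 (SE 0.19, adjusted p = 3.72e-10) was the largest rise among the genes named here, and was 5.24 against the untreated libraries of the other experiment. Scd2, the desaturase with the higher level in uncultured cells, rose from 328 ± 88.8 to 2245 ± 146 CPM, Fasn, the fatty acid synthase, from 451 ± 97.4 to 2247 ± 149 CPM, and Fads2, a desaturase of polyunsaturated chains, from 51.0 ± 4.46 to 324 ± 16.2 CPM. Acly, which makes cytosolic acetyl-CoA from citrate, had 222, 188, 238 and 224 CPM in uncultured and 923, 918, 904 and 899 CPM in cultured libraries, a log2 change of 2.06 (adjusted p = 6.39e-10). Srebf1, the factor that drives these genes, rose from 152 ± 22.1 to 345 ± 20.9 CPM. The 2 members that fell were Acss1, a mitochondrial acetyl-CoA synthetase (46.7 to 15.2 CPM), and Acacb, the acetyl-CoA carboxylase at the mitochondrial surface (31.6 to 6.30 CPM). Against 33.8% of all genes tested each way, 9 of 28 fatty acid oxidation genes were higher and 5 lower, with no common direction. There, Fabp5, a fatty acid carrier, and Ucp2, a mitochondrial carrier, rose by 2.26 and 0.71, while Cpt1a, which brings fatty acids into mitochondria, and Ppargc1a, a coactivator of mitochondrial genes, changed by -1.05 and -2.60.

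**Figure D3:**
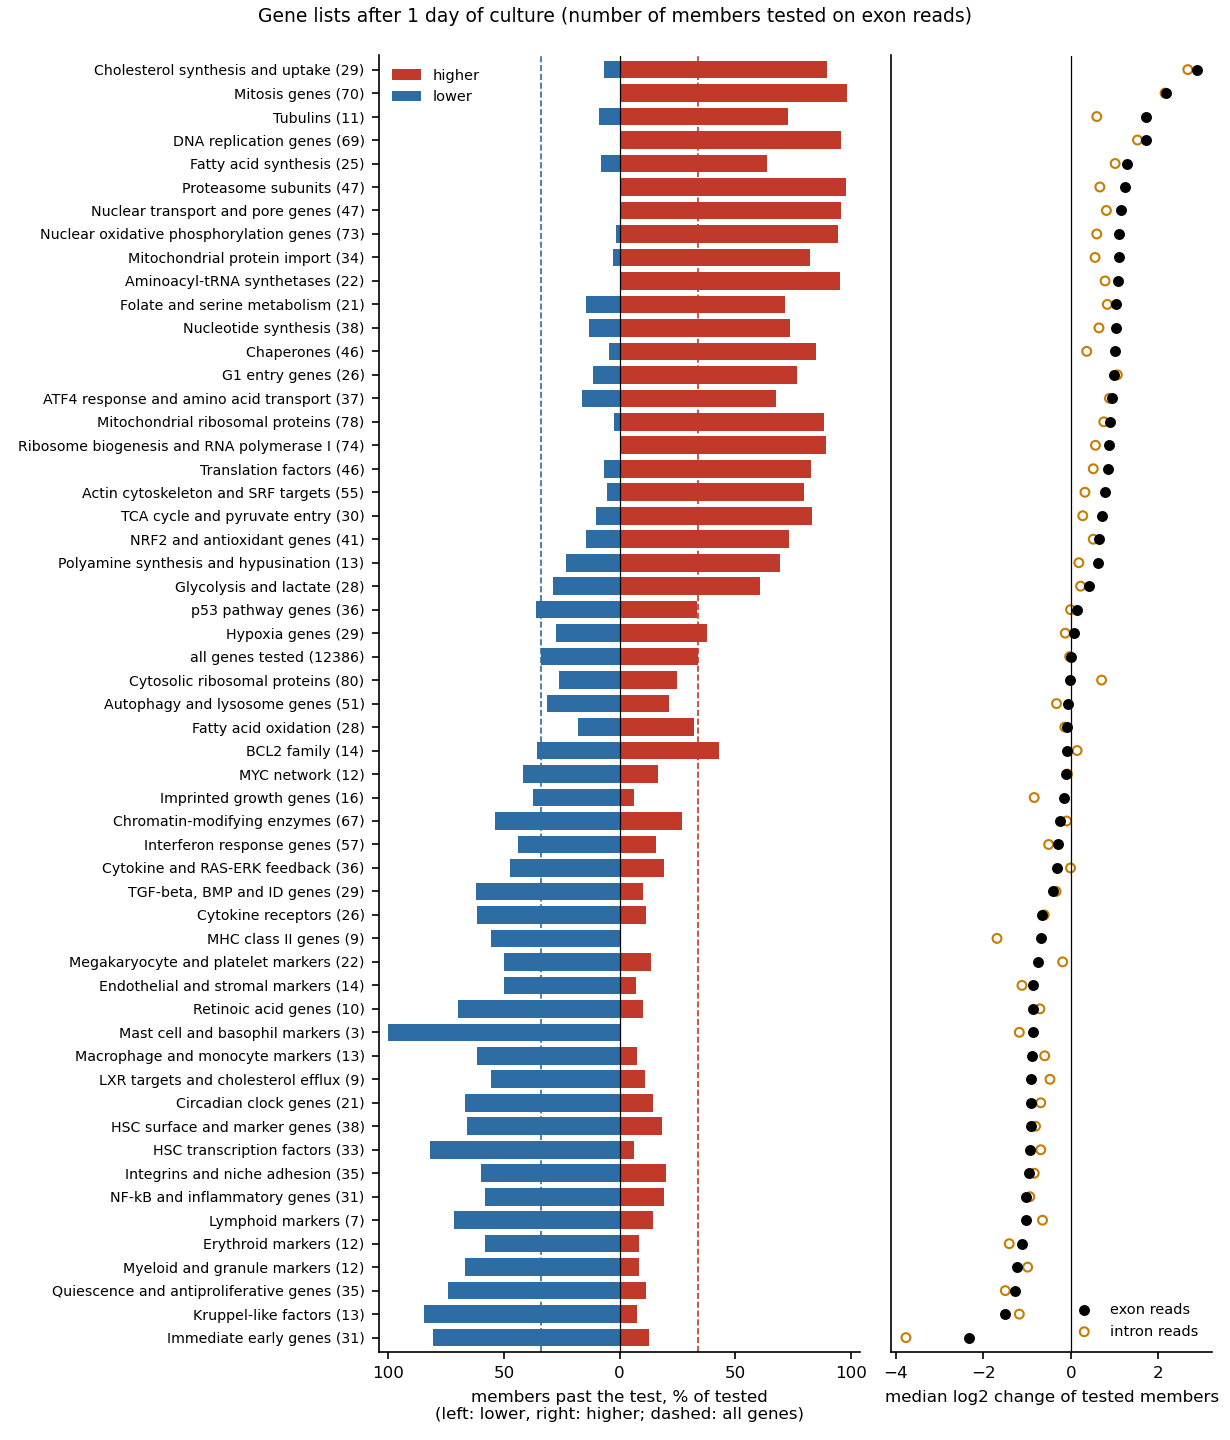
Left, share of tested members of each gene list that were higher (red, right) or lower (blue, left) after culture, in percent, with dashed lines at the shares over all genes tested (33.8% each); right, median log2 change of the tested members on exon reads (filled) and intron reads (open). Cholesterol synthesis lies at the top with a median of 2.89, and immediate early genes at the bottom with -2.34 on exon and -3.77 on intron reads.

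Nearly all genes of DNA replication and mitosis rose within the day. Of 69 replication genes 66 rose and 0 fell (median 1.71), and of 70 mitosis genes 69 rose and 0 fell (median 2.17). The replication genes that missed the threshold were Orc3, Orc4 and Orc5, subunits of the origin recognition complex, and the mitosis gene was Pttg1, the securin. On intron reads 60 of 69 and 69 of 70 rose. Pole, the catalytic subunit of the leading-strand polymerase, had 90.5, 81.4, 99.6 and 90.3 CPM in uncultured and 413, 407, 411 and 406 CPM in cultured libraries. The groups lie far apart with little spread in either, and the log2 change was 2.18 (SE 0.07, adjusted p = 4.65e-10). Pcna, the sliding clamp, had 90.9, 87.2, 102 and 91.7 CPM in uncultured and 349, 340, 367 and 342 CPM in cultured libraries, a log2 change of 1.91. Members of the replicative helicase rose too, Mcm5 from 158 ± 28.7 to 640 ± 14.8 CPM, Mcm6 from 202 ± 16.5 to 503 ± 19.6 CPM and Mcm7 from 131 ± 19.5 to 385 ± 9.71 CPM. Their loader Cdc6 went from 12.9 ± 7.0 to 55.5 ± 5.52 CPM (log2 change 2.10, and 2.80 without uncultured replicates 1 and 3), and Tyms, the thymidylate synthase, from 31.9 ± 1.78 to 175 ± 12.6 CPM.

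Mki67 (NCBI gene 17345, chr7:135689788-135716409), the gene of the proliferation antigen Ki-67, had 173, 95.9, 287 and 175 CPM in uncultured and 666, 657, 605 and 571 CPM in cultured libraries. Replicate 2 was the lowest and replicate 3 the highest of the uncultured libraries, and all 4 stayed under the cultured ones (log2 change 1.77, adjusted p = 2.17e-05). Mybl2, a factor of the complex that switches on mitotic genes, rose from 21.9 ± 9.39 to 226 ± 16 CPM, by 3.37 on the log2 scale and by 4.04 without uncultured replicates 1 and 3. Cdca5, which keeps sister chromatids joined, rose from 10.3 ± 2.79 to 78.1 ± 8.78 CPM, and Ncapd2 and Smc2, of the condensin complex, rose from 161 ± 44.6 to 660 ± 38.4 CPM and from 38.3 ± 5.20 to 108 ± 8.69 CPM. Bub3, of the spindle checkpoint, rose from 62.1 ± 4.81 to 148 ± 12.5 CPM, and Stmn1, a regulator of microtubules, from 36.0 ± 6.51 to 126 ± 8.83 CPM. The tubulins, of which 8 of 11 rose and 1 fell, went the same way: Tuba1a had 26.2, 28.0, 29.5 and 25.9 CPM in uncultured and 259, 264, 224 and 227 CPM in cultured libraries, Tuba1b rose from 677 ± 97.8 to 3033 ± 150 CPM and Tubb5 from 1204 ± 102 to 4047 ± 178 CPM. Reads shared between near-identical tubulin genes make single tubulin values uncertain.

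Of 26 genes of entry into the cycle 20 rose and 3 fell. Cdk4, the kinase partner of D cyclins, rose from 166 ± 9.86 to 471 ± 13.9 CPM, Ccna2, the S-phase cyclin, from 43.6 ± 29.2 to 251 ± 16.5 CPM, E2f7, a repressor of the E2F family, from 13.8 ± 5.22 to 114 ± 11.9 CPM, and Tfdp1, the DNA-binding partner of E2F factors, from 142 ± 16.4 to 483 ± 8.67 CPM. Tfdp2 and E2f5, also of the E2F family, changed by log2 values of -0.90 and -1.26. The 3 D cyclins differed. Ccnd3 had 191, 268, 295 and 248 CPM in uncultured and 381, 361, 369 and 394 CPM in cultured libraries, which did not overlap (log2 change 0.59, adjusted p = 0.000358). Ccnd1 went from 73.6 ± 16.3 to 94.8 ± 10.5 CPM (adjusted p = 0.0312), a call that was lost in most other settings, with adjusted p up to 0.351 on junction reads. Ccnd2, the most abundant of the 3 in CPM, had 881 ± 104 CPM and 783 ± 51.0 CPM (adjusted p = 0.0772). Cdk6 had 694 ± 212 CPM and 724 ± 73.8 CPM (adjusted p = 0.756), with a sign that depended on the setting.

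Promoter windows of these genes were searched for the letters of 2 factor families. The E2F forms TTTCCCGC and TTTGGCGC were in 11 (15.9%) and 8 (11.6%) of the 69 windows of replication genes, and in 1.07% and 0.514% of all windows. The CHR element TTTGAA, bound by the DREAM and MYBL2 complexes, was in 43 of the 66 windows of mitosis genes (65.2%) and in 17.9% of all windows, and CCAAT in 46 of 66 (69.7%) and 37.4%. The stretches below show a match in capitals for genes with values given above and for Gins3, of the helicase complex, which rose from 6.23 ± 2.07 to 20.5 ± 1.67 CPM. They lie at chr5:138172021-138172068, minus strand (Mcm7), chr11:98907993-98908040, plus strand (Cdc6), chr8:95633498-95633545, plus strand (Gins3), chr8:75109340-75109387, plus strand (Mcm5), chr1:128359725-128359772, minus strand (Mcm6), chr19:6085049-6085096, plus strand (Cdca5, with 2 matches), chr7:131560306-131560353, plus strand (Bub3), chr4:52439055-52439102, plus strand (Smc2) and chr6:125191683-125191730, minus strand (Ncapd2) in GRCm38.p6, each written along the gene's strand.
Mcm7: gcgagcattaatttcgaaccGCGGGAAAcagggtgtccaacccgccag
Cdc6: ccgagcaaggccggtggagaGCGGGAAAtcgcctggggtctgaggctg
Gins3: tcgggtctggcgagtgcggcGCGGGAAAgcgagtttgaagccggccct
Mcm5: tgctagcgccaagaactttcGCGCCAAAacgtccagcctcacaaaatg
Mcm6: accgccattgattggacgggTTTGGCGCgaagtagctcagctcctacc
Cdca5: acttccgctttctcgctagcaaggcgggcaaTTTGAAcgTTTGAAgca
Bub3: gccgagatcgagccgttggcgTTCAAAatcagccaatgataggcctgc
Smc2: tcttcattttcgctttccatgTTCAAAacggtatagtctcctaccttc
Ncapd2: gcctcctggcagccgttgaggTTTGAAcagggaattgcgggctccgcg

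The machinery of protein synthesis and turnover rose broadly. Of 74 ribosome biogenesis genes 66 rose and 0 fell (median 0.86), among them Fbl, the rRNA methyltransferase fibrillarin (95.3 to 246 CPM), and Bop1 and Mybbp1a, nucleolar factors (69.0 to 173 CPM and 409 to 876 CPM). The E-box CACGTG, bound by MYC and related factors, was in 14 of the 76 windows of these genes (18.4%) and in 7.15% of all windows. Aminoacyl-tRNA synthetases rose in 21 of 22 cases, led by Aars, the alanine enzyme (56.6 to 298 CPM), with Mars and Iars, for methionine and isoleucine, at log2 changes of 2.10 and 1.53. Of 46 translation factors 38 rose, such as Eif4g1, the scaffold of the cap-binding complex (423 to 867 CPM), Eif3b (187 to 492 CPM) and Eif5a, the hypusinated elongation factor (456 to 1301 CPM). The 3 that fell were Eif4a2, a helicase of initiation (163 to 106 CPM), Eif3f (361 to 296 CPM) and Eef2, the translocation factor (4170 to 3427 CPM).

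Proteasome subunits rose in 46 of 47 cases with a median of 1.24, including Psmd1 and Psmd2 of the regulatory particle (42.4 to 139 CPM and 125 to 365 CPM) and the activator Psme3 (130 to 338 CPM). Psmb8, a subunit of the immunoproteasome, also rose (87.7 to 132 CPM). Chaperones rose in 39 of 46 cases, with Hsp90aa1, the inducible HSP90, from 274 ± 17.9 to 941 ± 47.8 CPM, its cochaperone Ptges3 from 354 ± 26.4 to 1094 ± 53.8 CPM, and the mitochondrial chaperones Hspd1 and Hspa9 by log2 values of 1.87 and 1.25. Calr, the calreticulin of the endoplasmic reticulum, rose from 426 ± 76.7 to 772 ± 32.0 CPM, whereas Dnajb9, a target of the unfolded protein response, fell from 26.6 ± 5.47 to 8.58 ± 1.82 CPM. Nuclear pore and transport genes rose in 45 of 47 cases, with Ran, the GTPase of nuclear transport, from 238 ± 28.4 to 889 ± 6.67 CPM, the importin Ipo5 from 167 ± 8.13 to 469 ± 13.4 CPM and the pore protein Nup85 from 55.2 ± 2.58 to 186 ± 7.78 CPM.

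Cytosolic ribosomal protein genes moved differently on exon and intron reads. On exon reads 20 of 80 rose and 21 fell, with a median of -0.02, below the background share of rises (33.8%), and 13 fell without uncultured replicate 2. On intron reads 49 of 80 rose and 3 fell, with a median of 0.70. The test of exon against intron change itself put 52 of 80 at a lower exon than intron change and 4 at a higher one, where 11.2% and 11.6% of the 11403 genes tested that way passed. Rps9 had a log2 change of -0.48 on exon reads (898 to 643 CPM) and 1.13 on intron reads. Rps27 fell on exon reads (516 to 356 CPM), and Rps2 rose (333 to 579 CPM).

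Mitochondrial genes of nuclear origin rose in most members. Of 73 subunits of oxidative phosphorylation 69 rose (median 1.10), such as Atp5b, the catalytic subunit of ATP synthase (370 to 902 CPM), Cox5a of complex IV (34.3 to 132 CPM) and Ndufa4 (91.7 to 250 CPM). The 1 that fell was Cox7a2l, which takes part in joining respiratory complexes (177 to 98.3 CPM). Mitochondrial ribosomal proteins rose in 69 of 78 cases, Mrpl12 from 32.2 ± 3.71 to 108 ± 11.4 CPM, and 2 fell, of which Mrpl52 had 38.3 to 27.4 CPM but a log2 change of -0.01 (adjusted p = 0.94) against the untreated libraries. Import genes rose in 28 of 34 cases, such as the channel Tomm40 (43.8 to 145 CPM). Genes of the mitochondrial genome have no exon in these tables and appear in intron reads only, where 10 of 11 rose and 0 fell (median 0.97). Of all genes tested on intron reads 22.8% rose and 24.6% fell. That median is relative to intron reads, whose share fell from 70.4% to 62.5%, so it is not on the scale of the exon medians. As a share of reads on genes, mitochondrial mRNA went from 0.230% to 0.358%. In the TCA cycle list 25 of 30 rose, with Cs, the citrate synthase (170 to 415 CPM), Mdh2 (156 to 389 CPM) and Sdhb (55.0 to 130 CPM). The 3 that fell were Pdk1, Pdk2 and Pdk4, kinases that switch off pyruvate dehydrogenase, with log2 changes of -0.63, -2.59 and -3.56.

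Glycolysis was mixed. Of 28 genes 17 rose and 8 fell. Pgk1, the phosphoglycerate kinase, had 89.3, 77, 84.3 and 85.3 CPM in uncultured and 352, 354, 370 and 348 CPM in cultured libraries, with no overlap (log2 change 2.08, adjusted p = 4.65e-10). Pkm, the pyruvate kinase, rose from 600 ± 36.4 to 1833 ± 92.6 CPM and Ldha, the lactate dehydrogenase, from 520 ± 8.89 to 1500 ± 76.2 CPM, while Hk3, a hexokinase of myeloid cells, fell from 96.9 ± 24.9 to 27.6 ± 5.04 CPM. Pgk1 and Ldha are also among 29 hypoxia genes, of which 11 rose and 8 fell, near the 33.8% of all genes tested that went each way. Bhlhe40, a hypoxia-induced repressor, rose from 23.3 ± 3.07 to 89.8 ± 21.6 CPM, and Bnip3l, a receptor of mitophagy, fell from 137 ± 5.32 to 67.3 ± 11.1 CPM.

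Most listed genes of amino acid transport, 1-carbon metabolism and antioxidant defence rose, as 33.8% of all genes tested did. Slc7a11, the cystine importer, had 1.59, 1.19, 1.93 and 0.628 CPM in uncultured and 31.4, 26.2, 37.6 and 32.6 CPM in cultured libraries, a log2 change of 4.56 (adjusted p = 1.46e-08). Mthfd2, of mitochondrial folate metabolism, had 3.01, 2.67, 5.33 and 3.61 CPM in uncultured and 57.5, 59.6, 72.7 and 80.1 CPM in cultured libraries, and Psat1, of serine synthesis, rose from 57.9 ± 7.61 to 274 ± 4.04 CPM. Asns, the asparagine synthetase, and Got1, an aspartate aminotransferase, rose from 16.8 ± 2.28 to 61.4 ± 3.47 CPM and from 11.6 ± 1.56 to 42.7 ± 3.60 CPM. Of 37 genes of the ATF4 response 25 rose and 6 fell, the latter including Ddit4, an inhibitor of mTORC1 (46.7 to 15.4 CPM). The mRNA of Atf4 itself had 154 ± 80.3 CPM and 188 ± 6.81 CPM (adjusted p = 0.315), and its intron reads changed by -1.74 on the log2 scale (adjusted p = 0.00347). Folate and serine genes rose in 15 of 21 cases, with Ahcy, which recycles S-adenosylhomocysteine, from 77.7 ± 12.5 to 354 ± 21.0 CPM, and Mthfd1l from 67.8 ± 2.49 to 184 ± 12.3 CPM. Mtr, the methionine synthase, and Amt, of glycine cleavage, were among the 3 that fell (-0.56 and -1.30 on the log2 scale).

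The CARE element of ATF4, TGATGNAA, was in 10 of the 41 windows of the ATF4 list (24.4%) and in 3.97% of all windows. The 3 genes shown had values above, and the match is in capitals. Slc7a11 (chr3:50443633-50443680, minus strand) has a match on each strand, Asns lies at chr6:7693210-7693257, minus strand and Got1 at chr19:43524680-43524727, minus strand of GRCm38.p6.
Slc7a11: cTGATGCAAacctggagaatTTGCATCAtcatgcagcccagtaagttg
Asns: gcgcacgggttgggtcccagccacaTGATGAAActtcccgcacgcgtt
Got1: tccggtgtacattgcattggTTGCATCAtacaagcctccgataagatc

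Nqo1, a quinone reductase and target of the oxidative stress factor NRF2, had 17.0, 12.9, 9.48 and 20 CPM in uncultured and 206, 164, 189 and 189 CPM in cultured libraries (log2 change 3.66). Of 41 antioxidant genes 30 rose and 6 fell. Txn1, thioredoxin, rose from 47.2 ± 4.62 to 184 ± 6.31 CPM, Prdx1, a peroxiredoxin, from 178 ± 16.6 to 571 ± 17.2 CPM, and Gstm1, a glutathione transferase, fell from 202 ± 25.3 to 90.8 ± 12.3 CPM. The antioxidant response element TGACNNNGC was in 11 of their 49 windows (22.4%) and in 12.4% of all windows. Nucleotide synthesis rose in 28 of 38 cases, with Cad, the enzyme that starts pyrimidine synthesis, from 287 ± 19.9 to 997 ± 70.1 CPM and Nme2, a nucleoside diphosphate kinase, from 71.9 ± 4.29 to 274 ± 8.44 CPM. The 5 that fell were Samhd1, which breaks down dNTPs (203 to 94.6 CPM), Upp1 and Tymp, which break down pyrimidine nucleosides (-2.69 and -1.25 on the log2 scale), Rrm2b, the p53-induced reductase subunit (-1.18), and Adssl1 (-1.29). In polyamine synthesis, 9 of 13 rose. Odc1, the rate-limiting decarboxylase, had 89.1, 85.7, 87.6 and 63.2 CPM in uncultured and 341, 344, 373 and 384 CPM in cultured libraries, Srm, the spermidine synthase, rose from 132 ± 19 to 467 ± 32.8 CPM, and the breakdown enzymes Sat1 and Smox fell (29.3 to 11 CPM and 45.3 to 22.2 CPM).

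Genes that mark quiescent HSCs fell, but to different degrees. Of 35 quiescence and antiproliferative genes 26 fell and 4 rose (median -1.27). Txnip (NCBI gene 56338, chr3:96557957-96561857), which limits glucose uptake and binds thioredoxin, had 1269, 1382, 1209 and 1474 CPM in uncultured and 83.5, 81.2, 93.2 and 84.6 CPM in cultured libraries. Its log2 change was -3.96 (SE 0.08, adjusted p = 1.44e-11), and its relative Arrdc4 fell from 115 ± 14.7 to 6.71 ± 1.91 CPM. Pik3ip1, an inhibitor of PI3 kinase, had 301, 353, 309 and 376 CPM in uncultured and 29.0, 26.3, 20.4 and 19.1 CPM in cultured libraries, about the same log2 change (-3.81). Tsc22d3, a glucocorticoid- and FOXO-induced gene, fell from 497 ± 107 to 49.2 ± 9.97 CPM, Btg1, an antiproliferative factor, from 184 ± 64.1 to 46.7 ± 2.82 CPM, and Foxo3, the FOXO factor of HSC maintenance, from 606 ± 63.4 to 257 ± 19.7 CPM. Among CDK inhibitors, Cdkn1b (p27) had 95.5, 125, 122 and 120 CPM in uncultured and 41.3, 49.4, 34.4 and 27.4 CPM in cultured libraries, and Cdkn1c (p57) fell from 26.6 ± 8.47 to 11 ± 4.42 CPM. Cdkn1a (p21) moved the other way, from 6.32 ± 3.99 to 28.2 ± 2.92 CPM, as did Rbl1, the pocket protein p107, from 66.3 ± 13.7 to 174 ± 7.62 CPM.

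**Figure D4:**
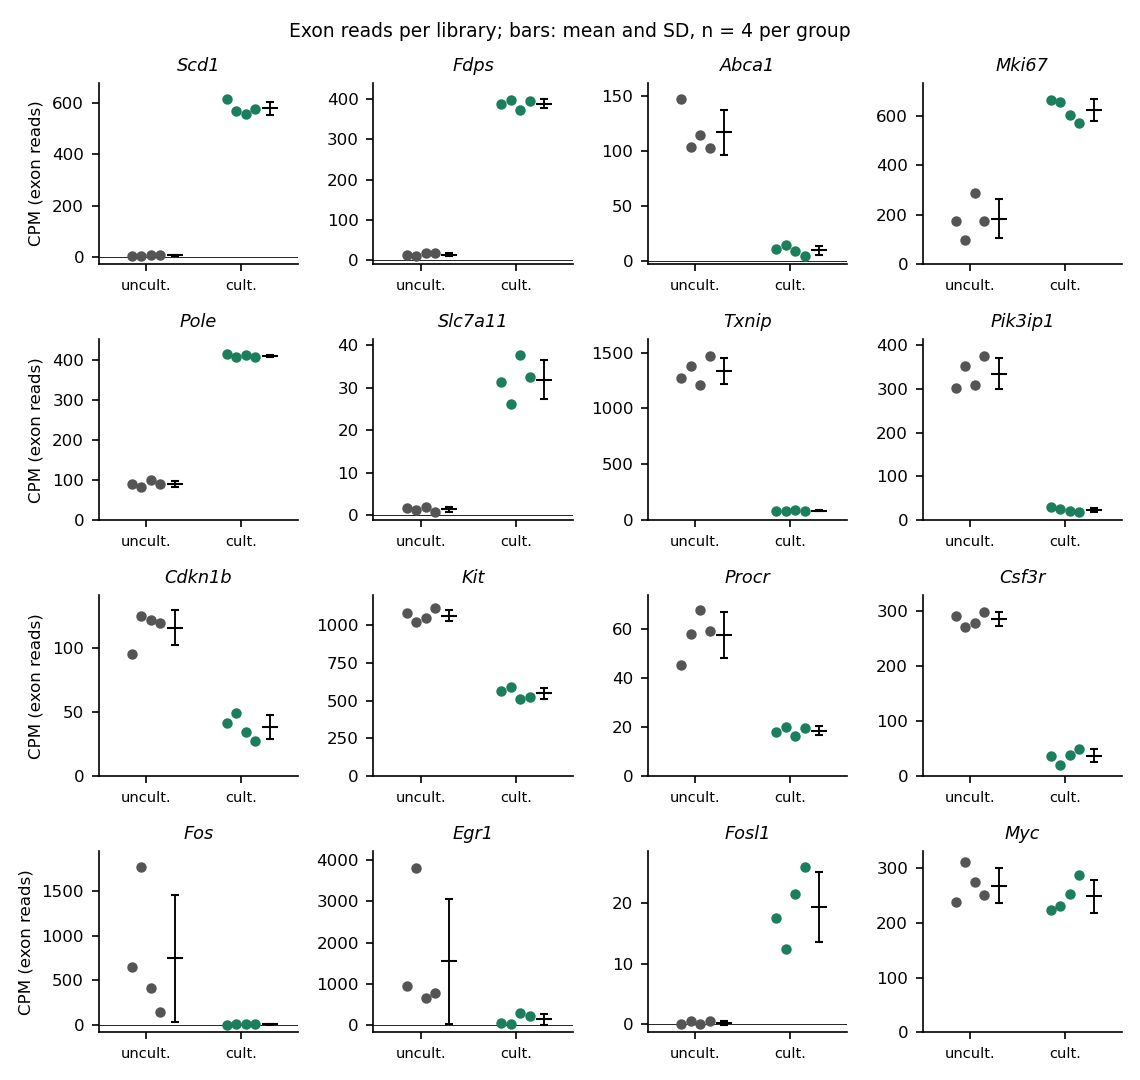
Exon reads in CPM of 16 genes in each library, 4 dots for uncultured (grey) and 4 for cultured HSCs (green), with bars for mean and SD (n = 4 each); every axis starts at or just under 0. Only for Myc do the groups overlap, and uncultured replicate 2 is the highest dot for Fos and Egr1.

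Of 33 transcription factors of HSCs 27 fell and 2 rose (median -0.93), the latter 0 without uncultured replicate 1 or cultured replicate 4. Hlf, a bZIP factor that marks the most immature cells, had 1071, 1368, 1143 and 1110 CPM in uncultured and 618, 650, 483 and 436 CPM in cultured libraries, and Mllt3, a chromatin reader of HSC maintenance, fell from 320 ± 30.1 to 116 ± 6.73 CPM. Meis1, a partner of HOX factors, fell from 629 ± 56.3 to 394 ± 10.6 CPM and Gata2 from 518 ± 59.0 to 289 ± 27.9 CPM. Mecom (EVI1) changed less, with 382, 379, 353 and 381 CPM in uncultured and 293, 324, 274 and 263 CPM in cultured libraries, groups that did not overlap (log2 change -0.37, adjusted p = 0.000554). Its intron reads were higher in every cultured than in any uncultured library but did not pass the test (log2 change 0.19, adjusted p = 0.0578). The test of exon against intron change did pass (difference -0.54, adjusted p = 0.00235). Runx1 was higher, from 419 ± 28.6 to 508 ± 67.8 CPM (adjusted p = 0.0162), a call lost on junction reads (log2 change 0.00, adjusted p = 0.984) and in several other settings.

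Of 38 surface and marker genes 25 fell and 7 rose, where 33.8% of all genes tested went each way. Kit (NCBI gene 16590, chr5:75574987-75656722), the receptor for stem cell factor, had 1077, 1019, 1043 and 1109 CPM in uncultured and 566, 593, 510 and 523 CPM in cultured libraries, and its log2 change was -0.95 (adjusted p = 3.66e-08). Adgrg1 (GPR56), among the most abundant transcripts in CPM, fell from 4018 ± 304 to 1810 ± 109 CPM, Robo4 from 171 ± 21.5 to 50.5 ± 6.43 CPM and Tek, the angiopoietin receptor, from 53.7 ± 3.54 to 28.2 ± 1.17 CPM. Sult1a1, a sulfotransferase enriched in HSCs, had 222, 165, 144 and 211 CPM in uncultured and 17.5, 17.2, 17.7 and 20.1 CPM in cultured libraries, the largest fall among the list's named members (log2 change -3.36). Cd34 had 235 ± 42.7 CPM and 266 ± 22.9 CPM (adjusted p = 0.179) and Vwf, the von Willebrand factor of platelet-biased HSCs, 356 ± 96.9 CPM and 293 ± 33.7 CPM (adjusted p = 0.138). Ifitm3, an interferon-inducible membrane protein, rose from 365 ± 14.1 to 732 ± 82.1 CPM, and the tetraspanin Cd9 from 56.5 ± 11.2 to 96.1 ± 12.3 CPM.

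Cytokine receptors fell more often than they rose (median -0.67). Of 26 tested 16 fell and 3 rose, where 33.8% of all genes tested went each way. Csf3r (NCBI gene 12986, chr4:126023441-126044975), the G-CSF receptor, had 290, 271, 279 and 299 CPM in uncultured and 37.7, 21.3, 38.9 and 50 CPM in cultured libraries (log2 change -2.94, adjusted p = 2.85e-08). Flt3 had 47.6, 82.3, 63.3 and 59.1 CPM in uncultured and 9.26, 8.39, 9.80 and 9.89 CPM in cultured libraries, with no overlap (log2 change -2.76, and -1.66 against the untreated libraries). Csf2rb, the common beta chain of the IL-3, IL-5 and GM-CSF receptors, and Csf2rb2, its IL-3-specific copy, rose from 95.1 ± 25.6 to 311 ± 18.9 CPM and from 66.6 ± 12.2 to 175 ± 8.52 CPM. Reads shared between these similar genes make their split uncertain. Of 36 genes of cytokine and RAS-ERK feedback 7 rose and 17 fell, against the same 33.8% each way over all genes. Pim2, a survival kinase, rose from 59.4 ± 9.27 to 174 ± 16.8 CPM. Dusp6, an ERK phosphatase, fell from 129 ± 15.8 to 55.5 ± 7.98 CPM and Cblb, a ubiquitin ligase, from 95.9 ± 5.6 to 46.5 ± 4.44 CPM. Stat5b, a factor switched on by cytokines, fell from 287 ± 23.2 to 173 ± 6.49 CPM.

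Immediate early genes, switched on within minutes by many stimuli, were far lower after culture. Of 31 tested 25 fell and 4 rose (median -2.34, and -3.77 on intron reads). Fos (NCBI gene 14281, chr12:85473901-85477269), of the AP-1 factor, had 651, 1764, 415 and 138 CPM in uncultured and 0.116, 0.883, 3.16 and 0.836 CPM in cultured libraries. The lowest uncultured library lies far above the highest cultured one, and the log2 change was -9.31 (SE 0.92, adjusted p = 1.8e-06). It was -8.42 without uncultured replicate 2, the highest library, and -10.27 without cultured replicate 3. Intron reads of Fos were 0 in all cultured libraries, which puts them at least 119-fold lower if each library is given 3 counts. Egr1 had 938, 3817, 654 and 777 CPM in uncultured and 39.9, 29.7, 297 and 221 CPM in cultured libraries, a log2 change of -3.40 (-2.43 without uncultured replicate 2). Nr4a1, an orphan nuclear receptor, had 139, 1322, 45.6 and 58.1 CPM in uncultured and 17.9, 15.6, 11.9 and 13.1 CPM in cultured libraries, a log2 change of -4.73 (-2.45 without that library). Fosb, Jun, Junb and Zfp36, of which the last destabilises mRNAs, changed by -7.94, -3.82, -3.63 and -4.20, and by -6.86, -3.18, -2.35 and -3.21 without it. Without uncultured replicates 1 and 3, Nr4a1 and Junb changed by -5.53 and -4.27. Calls of these 7 genes were kept without that library. Rhob and Klf10 also fell (134 to 26.6 CPM and 229 to 54.5 CPM).

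Some members moved up. Fosl1, an AP-1 subunit of later response, had 0, 0.593, 0 and 0.471 CPM in uncultured and 17.5, 12.5, 21.6 and 25.9 CPM in cultured libraries, from near none to a low level (log2 change 6.05, adjusted p = 4.39e-07). Its log2 change ran from 4.83 on unique reads to 6.77 without uncultured replicate 2, and was 5.15 without uncultured replicates 1 and 3. Srf, the serum response factor, rose from 55.8 ± 9.92 to 95.9 ± 6.82 CPM. Myc, which is listed with its partners, had 238, 310, 274 and 250 CPM in uncultured and 223, 230, 253 and 288 CPM in cultured libraries. Those groups overlap and the change did not pass the test (log2 -0.11, adjusted p = 0.338), whereas against the untreated libraries of the other experiment Myc was higher by 0.50 (adjusted p = 0.00715). Of the MYC antagonists, Mxd4, Mxd1, Mxi1 and Mga fell (-2.45, -0.98, -0.73 and -0.31 on the log2 scale) as did Mlxip, and Mxd3 rose from 9.45 ± 3.14 to 30.6 ± 5.20 CPM. The letters of AP-1 (TGANTCA) were in 1 of the 37 windows of immediate early genes (2.70%) and in 7.81% of all windows, and those of the cyclic AMP response element (TGACGTCA) in 4 (10.8%) and 1.79%.

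Inflammatory, circadian and Kruppel-like genes fell in most members, where 33.8% of all genes tested went each way. Of 31 NF-kB and inflammatory genes 18 fell and 6 rose, with Tnfaip3, a brake on NF-kB, from 31.6 ± 6.87 to 8.35 ± 1.49 CPM, Traf1 from 42.5 ± 4.11 to 7.56 ± 2.06 CPM and Icam1, an adhesion molecule, from 97.3 ± 12.7 to 44.3 ± 3.77 CPM. Vcam1, an adhesion molecule of macrophages and stroma, was at 9.64 CPM on average in uncultured libraries and at 0 in all cultured ones, at least 22.9-fold lower with 3 counts given to each of them. Kruppel-like factors fell in 11 of 13 cases, including Klf9, a glucocorticoid-induced factor (82.9 to 15.5 CPM), and Klf12 (87.3 to 30.6 CPM), and Klf16 rose (22.2 to 39.1 CPM). Clock genes fell in 14 of 21 cases, with Per1 from 606 ± 146 to 102 ± 4.45 CPM and Rora from 135 ± 18.8 to 28.4 ± 3.27 CPM, while Cry1, a repressor of the clock, rose from 10.6 ± 2.11 to 24 ± 3.31 CPM.

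Interferon response genes were mixed and mostly small in change. Of 57 tested 25 fell and 9 rose (median -0.29), where 33.8% of all genes tested went each way. Gbp8 and Gbp5, guanylate-binding proteins, fell from 35.3 ± 4.09 to 5.80 ± 0.810 CPM and from 67.2 ± 5.75 to 18.5 ± 4.78 CPM, Ddx60, an antiviral helicase, from 47.6 ± 3.78 to 15.9 ± 2.47 CPM and Trim30a from 225 ± 19.9 to 108 ± 11.1 CPM. The interferon-stimulated response element, searched at its fixed letters on both strands, was in 26 of their 54 windows (48.1%) and in 3.44% of all windows. Stretches of 3 genes that fell are shown with the match in capitals, from chr8:61928039-61928086, plus strand (Ddx60), chr7:104465201-104465248, minus strand (Trim30a) and chr3:142496750-142496797, plus strand (Gbp5) of GRCm38.p6. Of 9 MHC class II genes 5 fell and 0 rose, with Ciita, their transactivator, from 22.1 ± 3.94 to 4.40 ± 0.988 CPM, H2-DMa from 122 ± 9.07 to 58.7 ± 4.75 CPM and H2-Ob from 12.3 ± 4.11 to 0.753 ± 0.418 CPM.
Ddx60: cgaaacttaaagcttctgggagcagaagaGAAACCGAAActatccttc
Trim30a: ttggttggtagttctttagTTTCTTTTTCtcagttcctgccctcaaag
Gbp5: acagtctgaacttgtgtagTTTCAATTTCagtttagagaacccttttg

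Genes of retinoic acid turnover and of adhesion were among the largest falls. Cyp26b1, which breaks down retinoic acid, had 85.9, 91.3, 37.9 and 134 CPM in uncultured and 1.5, 1.32, 0.790 and 0.557 CPM in cultured libraries (log2 change -6.33, SE 0.43, adjusted p = 7.68e-08). Uncultured replicate 3 was the lowest of its group and still far above every cultured library. Dhrs3, a retinaldehyde reductase, and Rarb, a retinoic acid receptor, fell from 16.4 ± 5.82 to 0.736 ± 0.238 CPM and from 16.6 ± 3.22 to 3.76 ± 1.01 CPM, and Rara rose from 21.0 ± 5.02 to 34.7 ± 5.51 CPM, a call lost on junction reads (adjusted p = 0.125). Of 10 retinoic acid genes 7 fell and 1 rose, where 33.8% of all genes tested went each way. Of 35 integrin and niche genes 21 fell and 7 rose, with Itga9 at 33.1, 46.1, 47.9 and 33.8 CPM in uncultured and 2.55, 1.18, 1.11 and 2.79 CPM in cultured libraries, and Itga6, of the laminin receptor, higher, from 197 ± 19.5 to 282 ± 13.0 CPM. TGF-beta and BMP genes fell in 18 of 29 cases, such as Smad7, an inhibitor of the pathway (84.7 to 18.5 CPM), Ltbp3, which binds latent TGF-beta (342 to 75.9 CPM), and Bmpr2 (259 to 127 CPM). Id1, an inhibitor of bHLH factors, rose sharply, with 1.95, 1.78, 0.445 and 0.628 CPM in uncultured and 33.4, 34.1, 44.6 and 46.8 CPM in cultured libraries (log2 change 5.05), and Tgfb1 rose from 157 ± 12.2 to 358 ± 27.2 CPM.

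The cytoskeleton rose in 44 of 55 listed genes and fell in 3. S100a4, a calcium-binding partner of myosin, had 2.12, 1.19, 1.78 and 2.20 CPM in uncultured and 110, 93.1, 77.7 and 76.6 CPM in cultured libraries (log2 change 5.62, adjusted p = 6.39e-10). Actn4, an actin crosslinker, rose from 207 ± 4.03 to 467 ± 21.0 CPM and Arpc1b, of the Arp2/3 complex, from 306 ± 17.0 to 740 ± 27.5 CPM, while Cfl2 and Acta2 fell (84.4 to 59.2 CPM and 2.41 to 0.781 CPM). Of 67 chromatin-modifying enzymes 36 fell and 18 rose, where 33.8% of all genes tested went each way. Kdm5b, a demethylase of H3K4, had 209, 259, 192 and 200 CPM in uncultured and 37.4, 48.6, 33.8 and 36.5 CPM in cultured libraries, Kmt2c, an H3K4 methylase, fell from 639 ± 18.7 to 322 ± 11.1 CPM and Tet1, which oxidises 5-methylcytosine, from 220 ± 5.41 to 86.7 ± 6.03 CPM. Prmt1, an arginine methylase, rose from 79.6 ± 2.04 to 271 ± 22.6 CPM. Among imprinted growth genes, Igf2r, which clears IGF2, fell from 135 ± 9.67 to 26.2 ± 6.00 CPM and Gnas rose from 358 ± 22.5 to 666 ± 19 CPM.

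Cell death and p53 genes showed no common direction. Of 36 p53 pathway genes 12 rose and 13 fell, near the background of 33.8% each. Aen, an exonuclease, and Bax rose from 35.7 ± 2.03 to 83.5 ± 7.37 CPM and from 22.8 ± 6.54 to 64.1 ± 3.42 CPM, while Trp53inp1, a p53-induced gene, and the polo-like kinase Plk2 fell from 75.1 ± 11 to 18.9 ± 5.50 CPM and from 26.4 ± 9.54 to 2.85 ± 0.759 CPM. In the BCL2 family, 6 of 14 rose and 5 fell. Both the protective Bcl2l1 (BCL-XL) and the pore-forming Bak1 rose (38.1 to 105 CPM and 36.7 to 94.5 CPM), as did Bok (1.85 to 11.3 CPM, log2 change 2.62, and 4.19 without uncultured replicates 1 and 3), while the protective Mcl1 and the BH3-only Bmf fell (482 to 206 CPM and 15.1 to 3.97 CPM). Of 51 autophagy and lysosome genes 11 rose and 16 fell, with the initiating kinases Ulk1 and Ulk2 lower (305 to 134 CPM and 106 to 58.3 CPM) and the protease Ctsd higher (236 to 395 CPM), where 33.8% of all genes tested went each way.

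Exon and intron changes were compared gene by gene in 1 model, in which the library was a block. Of 11403 genes tested on both kinds of read, 2379 rose on both, 2203 fell on both, 3055 were called on exon reads alone, 947 on intron reads alone and 2656 on neither. In 1319 genes (11.6%) the exon change was above the intron change and in 1282 (11.2%) below it. Across genes, which are not independent replicates, the log2 changes had a Pearson correlation of 0.84. Exon reads rose while intron reads fell in 97 genes and the reverse held in 66, and all 163 passed the test of the difference. They were picked for opposite calls on the same reads, so that pass is no added support. On simulated counts in which few genes changed, changes of 2 fold were recovered in 74.6% of genes on exon reads. Fewer were recovered on intron reads (47.8%) and for the difference (44.8%). A gene called on exon reads alone is thus not shown to lack an intron change.

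Ccnd3 (NCBI gene 12445, chr17:47505051-47599689) was the clearest case. Its intron reads were 1562, 1664, 1459 and 1849 CPM in uncultured and 116, 118, 93.1 and 72.4 CPM in cultured libraries, a log2 change of -4.03 (adjusted p = 7.47e-08), beside a rise of 0.59 on exon reads, so that the difference was 4.68 (adjusted p = 5.38e-10). Odc1 rose on exon reads by 2.15 and changed by -0.92 on intron reads, the latter a call lost without uncultured replicates 1 and 3 (-0.85, adjusted p = 0.0643). Btg1, H3f3b, a histone H3.3 gene, and Egr1 kept more exon than intron signal, with differences of 3.21, 3.34 and 3.51. After culture the intron levels behind the first and last were low, at 0.186 and 0.294 CPM. Intron reads of H3f3b were 62.6, 68.8, 68.4 and 67.2 CPM in uncultured and 6.51, 4.38, 5.97 and 7.41 CPM in cultured libraries, while its exon reads had 479 ± 38.0 CPM and 432 ± 25.2 CPM (adjusted p = 0.0753). Ctla2a, a protease inhibitor, was alike, with a difference of 3.15. Among genes described above, Tuba1a, Mvd, Hsp90aa1, Pcna and Eif5a rose more on exon than on intron reads, with differences of 2.56, 2.45, 2.26, 2.12 and 1.96.

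The opposite held for Itga9, Sult1a1 and Apoe, whose exon reads fell more than their intron reads, by differences of -2.92, -2.52 and -2.45. For Apoe the intron level was low, at 0.833 CPM in uncultured and 0.598 CPM in cultured libraries on average. Its intron change did not pass the test (adjusted p = 0.410). Intron reads of Sult1a1 were 51.7, 46.1, 51.3 and 52.1 CPM in uncultured and 29.3, 31.7, 25.5 and 30.1 CPM in cultured libraries, with no overlap between the groups. Tuba1b rose more on intron than on exon reads (difference -1.68), from a low intron level of 0.579 CPM. Intron reads of Scd1 were 0, 0, 0.0655 and 0 CPM in uncultured and 13.1, 13.7, 11.1 and 11.4 CPM in cultured libraries, too few before culture to set the intron change against the exon change. For Fdps, Hmgcs1, Lss and Kit, with intron log2 changes of 5.02, 4.92, 3.96 and -0.91, no difference passed the test. For Txnip it did (-1.19, adjusted p = 0.0327), a call lost without cultured replicate 1, 2 or 3 (adjusted p = 0.121, 0.106 and 0.0527). The share of intron reads per library differed between groups as given above, and its part in single genes was not tested.

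**Figure D5:**
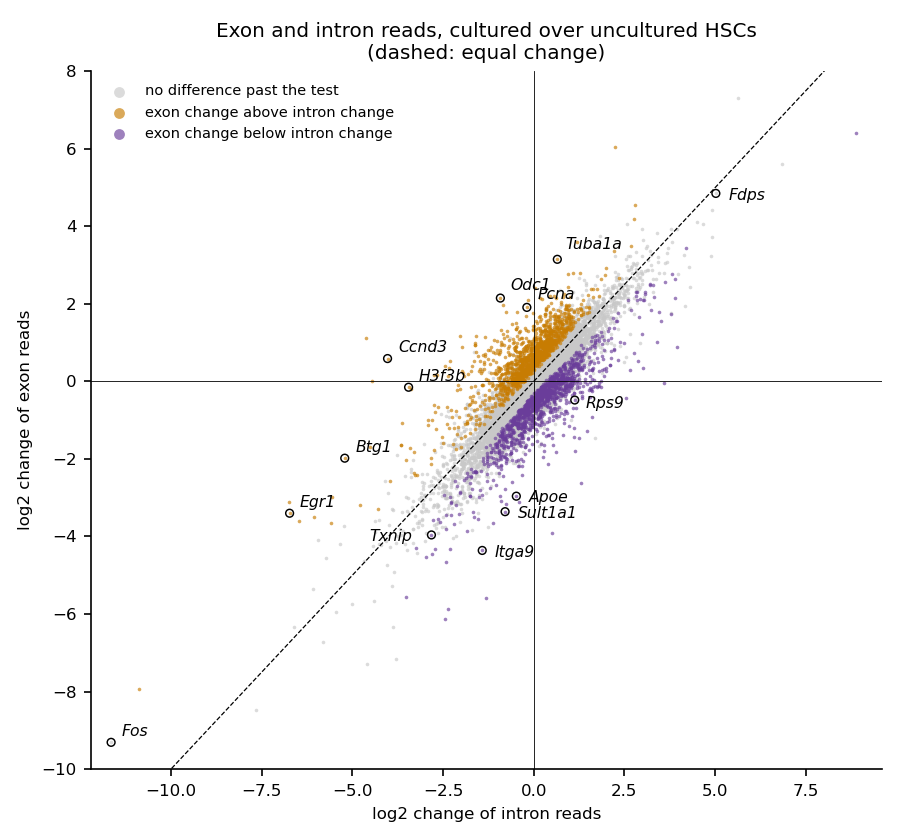
Log2 change of exon reads against that of intron reads for the 11403 genes tested on both; each dot is 1 gene, orange where the exon change was above and purple where it was below the intron change past the threshold, grey otherwise. Ccnd3 lies at 0.59 on exon and -4.03 on intron reads, and Itga9 at -4.36 and -1.42.

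Markers of other blood cells were mostly lower after culture, and the uncultured libraries that hold them differ. Of 12 tested myeloid and granule markers 8 fell and 1 rose, where 33.8% of all genes tested went each way. Their summed levels were 1176 to 3600 CPM in uncultured and 1018 to 1073 CPM in cultured libraries. Of the 27 listed, 7 had no read in any cultured library and 0 had no read in any uncultured one. Members with no read after culture can pass the filter only through the uncultured group, where a fall is the only outcome. Prtn3, a protease of neutrophil granules, fell from 135 ± 62.6 to 11.2 ± 2.69 CPM, by -3.59 on the log2 scale, and by -1.55 against the untreated libraries. Lyz2, lysozyme, had 191 ± 11 CPM and 111 ± 8.17 CPM, a call lost with all 30 libraries in 1 fit (adjusted p = 0.0953). Of the 23 listed erythroid markers 5 had no read in any cultured library, and the same limit holds for them. Of 12 tested 7 fell and 1 rose (median -1.11), against the same 33.8% each way. Those counts depended on the libraries kept. The filter on low counts was run anew each time, so the tested number of the 23 listed markers could change too. Without uncultured replicates 1 and 3, 4 fell and 3 rose (median -0.01). Falls numbered 12 without uncultured replicate 4 and 11 without any 1 of the cultured libraries, which are not shares of the 12 above. Hba-a2, alpha globin, had 403, 2.52, 644 and 4.71 CPM in uncultured libraries and 0 in all cultured ones. With 3 counts given to each cultured library, Hba-a2 was at least 627-fold lower, and at least 8.61-fold lower when uncultured replicates 1 and 3 are left out. Reads shared with its near-identical copy Hba-a1 make its own value uncertain. Tfrc, the transferrin receptor, which dividing cells also use, was the member that rose, from 52.9 ± 27.1 to 246 ± 99.0 CPM.

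Of 7 lymphoid markers 5 fell and 1 rose, with summed levels of 449 to 509 CPM in uncultured and 208 to 271 CPM in cultured libraries. Of the 30 listed, 14 had no read in any cultured library and 7 had no read in any uncultured one. The limit given above for members with no read after culture holds here too. Satb1, a chromatin organiser, fell from 48.1 ± 4.01 to 4.92 ± 0.976 CPM and Nkg7 from 27.4 ± 22.1 to 2.98 ± 0.673 CPM, and Lck, a T-cell kinase, rose from 10.8 ± 1.73 to 28.1 ± 2.35 CPM. Of 13 macrophage and monocyte markers 8 fell and 1 rose, which was Cd68 (10.1 to 25.1 CPM). Without cultured replicate 1, 3 or 4, 13 fell, but the filter was run anew there, so these are not the same 13. Of the 23 listed markers 8 had no read in any cultured library. Such members can pass the filter only through the uncultured group, where a fall is the only outcome. Slc18a2, a monoamine transporter listed with mast cells, fell from 334 ± 26.3 to 46.6 ± 9.6 CPM, with groups far apart. Of 22 megakaryocyte and platelet markers 11 fell and 3 rose, where 33.8% of all genes tested went each way. With the filter run anew on the 27 listed, 17 fell without uncultured replicates 1 and 3 and 5 rose without uncultured replicate 2. Treml1, of platelet granules, had 7.6, 21.4, 6.22 and 4.56 CPM in uncultured and 0, 0.147, 0.316 and 0 CPM in cultured libraries, with replicate 2 the highest. Its log2 change of -6.34 was -5.64 without that library and -7.30 without cultured replicate 3. F2r, a thrombin receptor, rose from 69.7 ± 26.3 to 229 ± 20 CPM. HSCs themselves express part of these lists, such as Gata2 and Emcn (22 to 8.67 CPM), and the part that other cells had in the falls was not tested. Without uncultured replicates 1 and 3, 4115 genes rose and 4128 fell, and 7639 of the 8369 calls were kept with the same sign.

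The series holds a second set of control HSCs, from untreated mice of the 5-fluorouracil experiment (n = 4). Against them, 4283 genes rose and 4366 fell after culture. Both comparisons share the 4 cultured libraries. That second set comes from another experiment, so its values differ by experiment as well as by culture, which cannot be told apart. On the log2 scale there, Scd1 and Fdps (5.24 and 4.21), Id1 (4.18), Ccna2 (3.52) and Pim2 (2.49) rose, and Fosb (-8.59) and Abca1 (-4.18) fell.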

How the data were processed

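Read counts per gene were deposited by the authors as total exon, unique exon and total intron counts, per the file headers. Reads were mapped to mm10, per the submitters' processing notes, with aligner and counter not given in the sources used here. Columns holding TPM, as deposited by the authors, were not used. No column belonged to other samples (0 found). Entries of 1 gene identifier were summed (1931 genes with more than 1 of 48737 entries), and 97.1% of identifiers were in the RefSeq table. Of the entries, 25149 have no exon and count only in intron reads, including all 37 mitochondrial ones.

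The 8 libraries were fitted with edgeR 4.0.16 (R 4.3.3), after its filterByExpr and TMM steps, by the quasi-likelihood F test on group means, separately for exon and intron counts. Exon against intron change was the interaction of read kind and culture with the library as a block. Depth was 5.36 to 9.11 M exon reads per library, and floors cover counting error only, since PCR reads are not independent molecules. On simulated counts for this comparison, 52.2, 74.6 and 93.9% of genes changed by 1.5, 2 and 4 fold were recovered on exon reads (12386 genes), with 3.9% of calls false. On intron reads (14291 genes) the shares were 23.9, 47.8 and 81.8%, and for the difference (11403 genes) 14.9, 44.8 and 84.8%. In each simulation 67, 67 and 66 genes were changed at these sizes. That is far fewer than were called in the real data, 33.8% of genes each way on exon reads. Recovery and the share of false calls may therefore differ in the real data. No 2 libraries were duplicates. Same-numbered libraries of the groups did not deviate together (correlations -0.04 to 0.02), so replicate numbers were not taken as pairs.

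The comparison, the 55 gene lists and the motifs were chosen with earlier results of these data known, so no list is independent evidence. Lists share genes. Named genes were the 14 largest rises and 14 largest falls among called genes with no overlap between groups whose higher group averaged 5 or more in log2 CPM, predicted genes excluded; up to 3 members per list by p in its main direction and 1 in the other; the 6 largest exon-intron differences each way; and a fixed set (Cd48, Slamf1, Procr, Kit, Mki67, Myc, Cdk6, Ccnd1, Ccnd2, Cdkn1b, Cdkn1c, Acly, Hlf, Mecom, Txnip). A part is printed, and some named genes are not reported here. Chosen after their values were seen were Acaa1a, Acacb, Acta2, Adssl1, Amt, Asns, Atf4, Bmf, Bok, Bub3, Ccna2, Cd34, Cd9, Cdc6, Cdkn1a, Cry1, Csf2rb, E2f5, Eef2, Eif3f, Fasn, Gbp5, Ggps1, Gins3, Got1, H2-Oa, Insig1, Junb, Mcl1, Mcm5, Mcm6, Mcm7, Meis1, Mga, Mxi1, Ncapd2, Pdk1, Pdk4, Ppargc1a, Rrm2b, Scd2, Slc7a11, Smc2, Smox, Srebf1, Srebf2, Srf, Tgfb1, Tymp, Upp1 and Vwf. Other settings were RLE factors, library totals, no filter, DESeq2 1.42.0, unique reads, entries as deposited, libraries left out in turn, the replicate block, all 30 libraries in 1 fit and other controls; junction reads, the globin libraries left out together and genes with an exon only were added after seeing the data. Python 3.11.15 with pandas 2.3.3, NumPy 2.4.6, SciPy 1.17.1 and matplotlib 3.10.9 made the tables and plots.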

Additional observations from a re-analysis of the deposited data

Results flagged for a closer look

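Among 92 groups of 4 libraries checked (40 genes and 6 library values given per library), 6 held a library far from the other 3, where chance gives about 1 in 20. Uncultured replicate 2 had 3817 CPM of Egr1 against 654 to 938 CPM in the others, and 1322 CPM of Nr4a1 against 45.6 to 139 CPM. Uncultured replicate 3 had 353 CPM of Mecom against 379 to 382 CPM. Uncultured replicate 4 had 63.2 CPM of Odc1 against 85.7 to 89.1 CPM. Cultured replicate 4 had 20.1 CPM of Sult1a1 against 17.2 to 17.7 CPM. In cultured replicate 2 the 100 most abundant genes took 16.2% of exon reads against 16% in the other cultured libraries.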

How the results depend on the processing

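Numbers of calls on exon and intron reads stayed within 1.5 times the values given under every setting run, except that exon-exon junction reads alone gave 2720 higher genes (9349 tested). Leaving out 1 library at a time gave 3974 to 4154 higher and 3956 to 4177 lower genes on exon reads, 2822 to 3280 and 3123 to 3365 on intron reads, and 987 to 1368 and 873 to 1320 for the exon against intron change. With the replicate block, 4122 genes rose and 4019 fell on exon reads and 3008 and 3185 on intron reads; the replicate numbers are not pairs by the check given. It moved Nr4a1 to -3.48 with the call kept. Signs reversed for genes below the threshold: Atf4 was -0.01 without the 2 globin libraries; Cdk6 was -0.07 with library totals, -0.07 to 0.27 with 1 library left out (lowest without uncultured replicate 2, and -0.01 without uncultured replicate 4) and -0.29 on junction reads; H3f3b was 0.20 on junction reads. Against untreated controls Myc was 0.50 and the median of the MYC network 0.04. The cause of these was not tested. Of 259 genes described, 6 lost their exon call in at least 1 setting (21 values), and 7 gained one. Those that lost it were Ccnd1, Runx1, Lyz2, Mrpl52, Npc2 and Rara. Calls on intron reads and of the difference were not counted there, and some were lost with 1 library left out. Examples were Mxd3, Dusp6 and Pdk2 on intron reads, and Cdk4, Ccna2 and Hlf for the difference. The 4 libraries a group limit the precision. On simulated counts in which few genes changed, 52.2% of changes of 1.5 fold were recovered on exon reads. The shares were 23.9% on intron reads and 14.9% for the difference.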
